A study of Mus musculus with 10 samples.

Results

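Mrc1, Cd163, Stab1, Lyve1, Folr2, Mgl2, Clec10a, Retnla, Chil3 and Cbr2 are genes by which alternatively activated macrophages and macrophages resident in tissue are recognised in the mouse. They were chosen by name, and all 10 had a probe set on the array, so 10 of the 19505 genes tested are described here, in 10 tumors. None of them passed the adjusted test between shPC and Ctrl tumors, and none passed the adjusted test for following the fat marker Adipoq. Over all genes 0.0% passed the first test, and 0.718% passed the second with a positive slope and 0.082% with a negative one. The estimates of the 10 genes pointed in opposite directions. Mrc1, Stab1 and Cbr2 read higher and Clec10a and Retnla lower in the shPC tumors at an unadjusted p under 0.05. Over all genes 7.8% read higher and 6.25% lower at that threshold. Without the tumor shPC 5 only Mrc1 and Stab1 reached it, both as higher, and none of the other 8 did. Over all genes 5.77% were then higher and 5.04% lower.

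Macrophages that meet interleukin 4 or interleukin 13 bind them through receptors that contain Il4ra. Janus kinases such as Jak1 then activate the transcription factor Stat6, and the cells make endocytic receptors and lectins such as Mrc1, Mgl2 and Clec10a and secreted proteins such as Retnla and Chil3, a state called alternative activation. Macrophages that live in mouse fat and connective tissue, the mammary fat pad included, are known for Lyve1, Folr2, Cd163, Stab1 and Cbr2, and many of these cells carry Mrc1 as well.

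M-Wnt, a mammary cancer line of the mouse with mesenchymal traits, gave the tumors. Each tumor started from 50000 cells injected into a C57BL6J mouse at mammary fat pad 4, and the study's methods give females of 8 to 12 weeks. All the cells, in both groups, carried an shRNA against Pcx (pyruvate carboxylase) that doxycycline switches on. Mice of the shPC group drank 150 µg/ml doxycycline and those of the Ctrl group standard water, so the drug and the knockdown cannot be told apart, and host cells, macrophages among them, do not carry the shRNA. RNA of the whole tumor was hybridized to 1 Clariom S mouse array per tumor, and values are log signals, read here as log2. Lower signal from fewer macrophages and lower signal from less RNA per macrophage cannot be told apart in whole tumors. The sources used here do not state that each tumor came from its own mouse, and a p-value here reflects how these 10 tumors varied.

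The shRNA target Pcx read 10.43, 7.24, 11.01, 7.79 and 9.54 in Ctrl 1 to 5 and 9.91, 4.69, 9.39, 4.49 and 5.15 in shPC 1 to 5, with shPC 1 and shPC 3 inside the range of the Ctrl tumors. The Pcx difference was -2.48 (shPC minus Ctrl, SE 1.19, limma adjusted p = 0.378), with p = 0.111 in an exact permutation test (two-sided). Pcx moved with Adipoq over the tumors (r = 0.984). With Adipoq as a covariate its difference was -0.34 (SE 0.30, limma adjusted p = 0.76). So Pcx did not pass as lower in the shPC tumors, and the part of fat cells in its signal was not tested. Macrophages were present in every tumor by their markers. Of 23 macrophage identity genes 20 were measured, none was under the 30th percentile of every array, and the Ctrl tumors had a mean signal of 14.09 to 14.29 over them and the shPC tumors one of 13.75 to 14.16. At an unadjusted p under 0.05, 6 of the 20 read lower and 0 higher, beside 6.25% and 7.8% of all genes. They were led by Aif1, a cytoskeletal protein of macrophages, at -0.82, Cd84 at -0.81 and Tyrobp at -0.34. Without the tumor shPC 5 there were 5 lower and 0 higher, beside 5.04% and 5.77% of all genes. The tumor shPC 5 stood apart. Its array median was 6.785 against 7.01 to 7.17 in the other tumors, and the mean of its T cell genes was 6.70 against 9.21 to 11.34. Many of the differences, correlations and list counts in which it weighed are given again without it, over the other 9 tumors. The choice was made after seeing the data.

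The promoters of 3 of the genes are shown because they hold a palindrome of the kind that STAT factors bind. TTCNNNNGAA is the form preferred by Stat6 and TTCNNNGAA the form of most other STAT factors. Each reads the same on both strands. Of 32851 mouse promoter windows in RefSeq (GRCm38.p6), each with 250 bases before and 50 after a start, 6.95% held the first and 8.3% the second. Windows were found for 8 of the 10 genes, with 9 windows in all, and 2 of these 9 held TTCNNNNGAA and 1 held TTCNNNGAA. Each of the 3 windows held 1 match, in capitals, and a match is a stretch of letters and not a measured binding site. In Retnla, at chr16:48842359-48842658 on the plus strand, it began 145 bases before the start. In Cbr2, at chr11:120731972-120732271 on the minus strand, it began 25 bases after the start. In Chil3, at chr3:106167515-106167814 on the minus strand, it began 172 bases before the start.
Retnla: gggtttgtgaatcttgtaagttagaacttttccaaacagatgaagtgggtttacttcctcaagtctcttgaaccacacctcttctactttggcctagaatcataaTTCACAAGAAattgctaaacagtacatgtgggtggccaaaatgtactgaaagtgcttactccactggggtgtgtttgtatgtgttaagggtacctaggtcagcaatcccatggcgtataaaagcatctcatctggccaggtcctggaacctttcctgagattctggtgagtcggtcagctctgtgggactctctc
Cbr2: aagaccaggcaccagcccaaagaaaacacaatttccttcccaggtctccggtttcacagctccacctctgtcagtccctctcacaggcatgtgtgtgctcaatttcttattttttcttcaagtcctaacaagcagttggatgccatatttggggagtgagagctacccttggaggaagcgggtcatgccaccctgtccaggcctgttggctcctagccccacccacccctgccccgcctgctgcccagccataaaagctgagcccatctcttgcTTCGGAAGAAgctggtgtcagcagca
Chil3: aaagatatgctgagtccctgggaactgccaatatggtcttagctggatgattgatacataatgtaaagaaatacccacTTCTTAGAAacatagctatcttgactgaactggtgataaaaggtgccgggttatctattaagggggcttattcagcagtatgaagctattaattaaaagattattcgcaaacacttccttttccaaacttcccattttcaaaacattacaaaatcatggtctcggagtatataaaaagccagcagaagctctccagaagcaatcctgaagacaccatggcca

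The scavenger and endocytic receptors are considered first. All 5 had estimates above 0, with a median difference of 0.83 (shPC minus Ctrl, log2) beside 0.04 over all genes, and none passed the adjusted test. Over all 19505 genes 0.0% passed it. At an unadjusted p under 0.05, which 7.8% of all genes reached as higher and 6.25% as lower, 2 of the 5 read higher.

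Stab1 (stabilin 1, Entrez Gene 192187, chromosome 14, 31139017 to 31168651 in GRCm38.p6) encodes a scavenger receptor that takes up altered lipoproteins and matrix proteins, and sinusoidal endothelium carries it too. It read 9.66, 9.98, 9.90, 10.01 and 10.01 in Ctrl 1 to 5 and 11.21, 10.14, 10.53, 10.08 and 11.88 in shPC 1 to 5. Each of the 5 shPC tumors exceeded every Ctrl tumor, the only one of the 10 genes whose groups did not overlap. Over all genes 1.82% had every shPC tumor above every Ctrl tumor and 1.79% had every shPC tumor below. The shPC minus Ctrl difference was 0.86 (SE, the standard error, 0.31, limma adjusted p = 0.265). An exact permutation test over every split of the tumors, two-sided, gave p = 0.00794, the smallest it can give. The Ctrl tumors were tight (9.91 ± 0.15, SD, n = 5) and the shPC tumors spread (10.77 ± 0.77, SD, n = 5), with shPC 2 (10.14) and shPC 4 (10.08) just above the highest Ctrl tumors (10.01). Without shPC 5 the difference was 0.58 (limma adjusted p = 0.398).

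Mrc1 (mannose receptor CD206, Entrez Gene 17533, chromosome 2, 14229414 to 14332023) takes up mannose-rich glycoproteins and collagen fragments. Its signal was 13.72, 14.84, 14.02, 14.13 and 14.07 in Ctrl 1 to 5 and 14.80, 14.85, 14.56, 14.53 and 16.17 in shPC 1 to 5. Every shPC tumor lay above the Ctrl mean, but Ctrl 2 overlapped them, and shPC 5 was far above the other 9 tumors. The difference was 0.83 (SE 0.32, limma adjusted p = 0.284), and the exact permutation test gave p = 0.0317 (two-sided). Leaving out shPC 5 it was 0.53 (limma adjusted p = 0.411).

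Folr2 (folate receptor beta, Entrez Gene 14276, chromosome 7, 101839988 to 101857190) binds folate and marks resident macrophages. It read 10.60, 11.11, 9.07, 9.52 and 10.34 in Ctrl 1 to 5 and 11.93, 10.53, 10.87, 9.12 and 12.74 in shPC 1 to 5. Only shPC 1 and shPC 5 exceeded the Ctrl tumors, and shPC 4 was next to the lowest of all. The shPC minus Ctrl value of 0.91 (SE 0.62, limma adjusted p = 0.529) was 0.48 without shPC 5.

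Cd163 (Entrez Gene 93671, chromosome 6, 124304636 to 124330529) encodes the receptor by which macrophages clear hemoglobin bound to haptoglobin. Its values were 7.13, 6.91, 7.16, 6.79 and 6.35 in Ctrl 1 to 5 and 9.58, 6.43, 6.80, 6.98 and 7.91 in shPC 1 to 5. The high values were those of shPC 1 and shPC 5, and the other 3 shPC tumors lay within the Ctrl range. The difference was 0.67 (SE 0.50, limma adjusted p = 0.570), and 0.16 without shPC 1.

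Lyve1 (Entrez Gene 114332, chromosome 7, 110850607 to 110862953) encodes a hyaluronan receptor of resident macrophages that lymphatic endothelium also carries. It read 9.16, 9.63, 10.89, 8.87 and 8.49 in Ctrl 1 to 5 and 10.54, 9.72, 8.81, 8.72 and 10.27 in shPC 1 to 5, and the groups covered nearly the same range. The difference was 0.20 (SE 0.48, limma adjusted p = 0.876), and 0.0395 without shPC 5. Prox1 and Flt4 are given beside it as defining genes of lymphatic endothelium, with their values in view. Prox1, a transcription factor of lymphatic fate, was highest in Ctrl 3 (8.18), where Lyve1 was highest too, and next highest in shPC 4 (7.84), where Lyve1 was low. In shPC 1 and shPC 5, which were high for Lyve1, Prox1 read 5.14 and 4.86. Flt4, the receptor of lymphatic growth factors, read 6.18 and 5.82 in these 2 tumors against 7.46 in Ctrl 3 and 7.73 in shPC 4. Pdpn, a surface protein on the same list that other cells carry too, ran the other way, with 10.77 in shPC 5, its highest value, and 10.28 in shPC 1. Sema3a, also on the list, was highest in shPC 5 as well (14.22), but read 13.3 in shPC 1. The mean of all 10 genes of the list, Lyve1 among them, was 9.29 in Ctrl 3, 8.945 in shPC 4, 7.88 in shPC 1 and 7.448 in shPC 5, the lowest tumor. This mean includes 1 gene that was under the 30th percentile of every array.

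**Figure D1:**
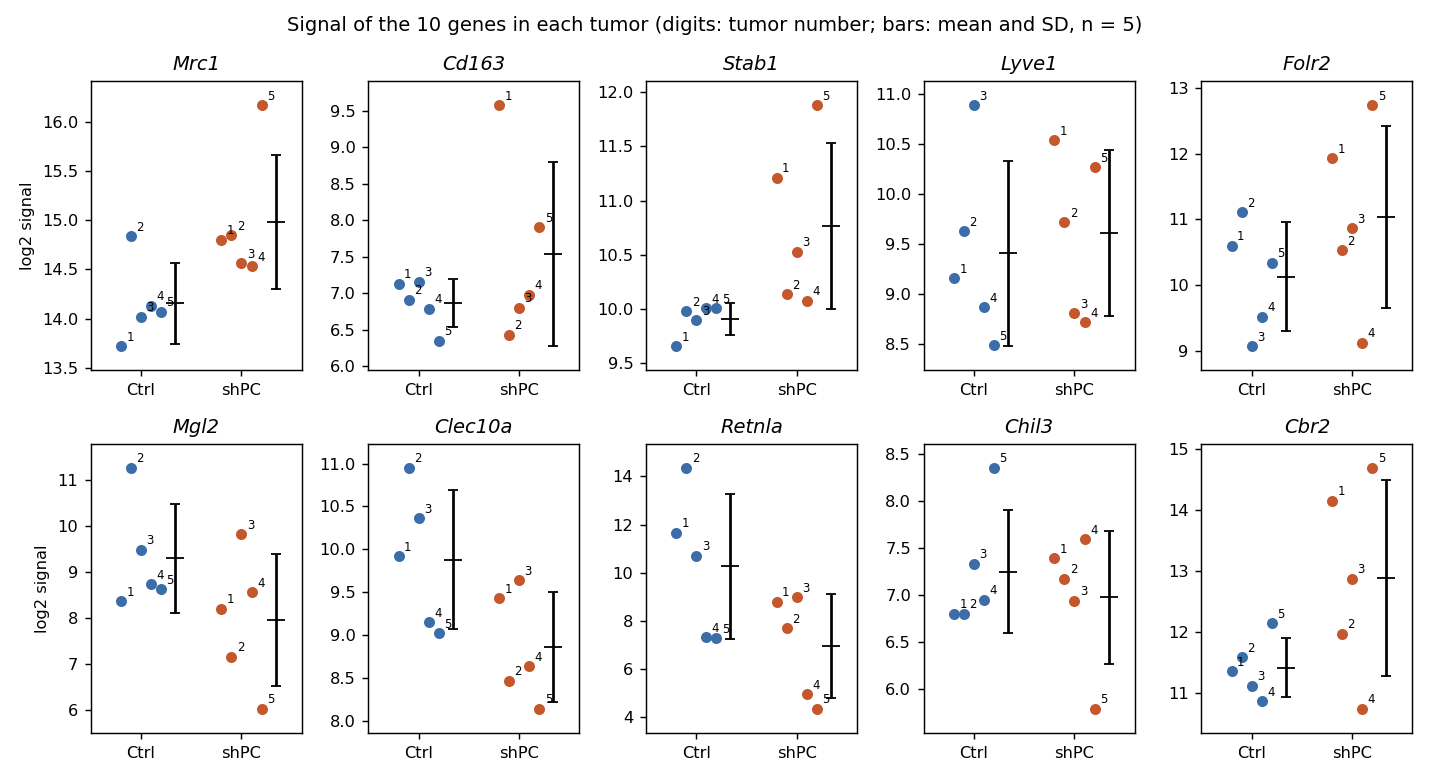
Log2 signal (y axis, its own scale for each gene) of each gene in the 5 Ctrl and 5 shPC tumors, with tumor numbers beside the points and the mean and SD of each group as bars. Stab1 is the gene with all shPC tumors above all Ctrl tumors, and Retnla runs from 4.36 to 14.35.

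The galactose-binding lectins Mgl2 and Clec10a, neighbouring genes on chromosome 11, both had estimates below 0. Clec10a (Entrez Gene 17312, 70166623 to 70170836) encodes CD301a and Mgl2 (Entrez Gene 216864, 70130125 to 70137542) encodes CD301b, which bind sugars ending in galactose or N-acetylgalactosamine. Macrophages make both, and subsets of dendritic cells carry Mgl2.

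Clec10a read 9.92, 10.95, 10.36, 9.15 and 9.02 in Ctrl 1 to 5 and 9.43, 8.47, 9.64, 8.64 and 8.14 in shPC 1 to 5. Each shPC tumor lay below the Ctrl mean, and 3 of them below every Ctrl tumor. The difference was -1.02 (SE 0.40, limma adjusted p = 0.297), with p = 0.0714 in the exact permutation test (two-sided). Without shPC 5 it was -0.84.

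Mgl2 read 8.37, 11.26, 9.48, 8.73 and 8.63 in Ctrl 1 to 5 and 8.20, 7.16, 9.82, 8.56 and 6.03 in shPC 1 to 5. Ctrl 2 was at the top and shPC 5 at the bottom, and shPC 3 was the second highest of all. The difference was -1.34 (SE 0.71, limma adjusted p = 0.420). It was -0.86 without shPC 5 and -0.85 without Ctrl 2.

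The secreted proteins are Retnla and Chil3. Retnla (RELM alpha, Entrez Gene 57262, chromosome 16, 48842609 to 48844461) is a classic product of alternatively activated mouse macrophages and is also made in mouse fat. It read 11.66, 14.35, 10.70, 7.34 and 7.28 in Ctrl 1 to 5 and 8.80, 7.69, 8.99, 4.96 and 4.36 in shPC 1 to 5. It had the widest range of the 10 genes, 9.99 on the log2 scale, and the Ctrl tumors alone ran from 7.28 to 14.35. Ctrl 4 and Ctrl 5 lay below shPC 1, shPC 2 and shPC 3, so the groups overlapped although each shPC tumor was below the Ctrl mean. The difference was -3.31 (SE 1.40, limma adjusted p = 0.324), which read as log2 is 9.89-fold lower, and the exact permutation test gave p = 0.0873 (two-sided). It was -2.66 without shPC 5 and -2.28 without Ctrl 2. The Retnla window printed above holds the TTCNNNNGAA palindrome, as does that of Cbr2, whose estimate had the opposite sign.

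Chil3 (Ym1, Entrez Gene 12655, chromosome 3, 106147554 to 106167564) encodes a chitinase-like lectin that mouse neutrophils make as well. It read 6.80, 6.80, 7.33, 6.95 and 8.35 in Ctrl 1 to 5 and 7.39, 7.17, 6.94, 7.59 and 5.79 in shPC 1 to 5. Apart from Ctrl 5 and shPC 5 all tumors lay between 6.80 and 7.59. The difference was -0.27 (SE 0.38, limma adjusted p = 0.773), and 0.0265 without shPC 5.

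Cbr2 (carbonyl reductase 2, Entrez Gene 12409, chromosome 11, 120729485 to 120732025) is an enzyme that reduces carbonyl compounds. In the mouse it is found in resident macrophages, in lung and in maturing fat cells. It read 11.36, 11.59, 11.12, 10.86 and 12.14 in Ctrl 1 to 5 and 14.15, 11.97, 12.87, 10.74 and 14.69 in shPC 1 to 5. Of the shPC tumors shPC 1, shPC 3 and shPC 5 exceeded every Ctrl tumor, while shPC 4 was the lowest of all 10. The difference was 1.47 (SE 0.64, limma adjusted p = 0.338), with p = 0.111 in the exact permutation test (two-sided), and 1.02 without shPC 5.

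Over the 10 genes the median difference was 0.44 beside 0.04 over all genes, with 6 estimates above 0 and 4 below. The median size of the difference was 0.88 against 0.20 over all genes. The spread within the groups was larger in the same way, with a median SD of 0.90 against 0.32, and adjusted p ran from 0.265 to 0.876. By the methods' t-test 0 of the 10 passed as well.

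**Figure D2:**
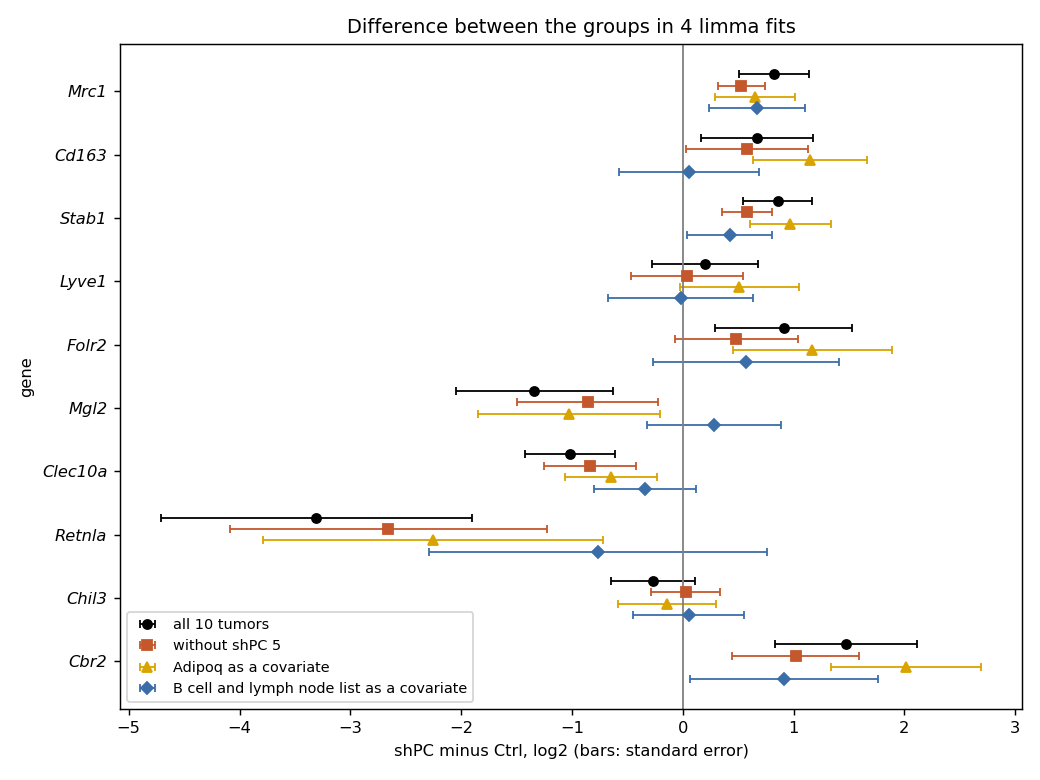
Difference between the groups (shPC minus Ctrl, log2, x axis) of each gene with its standard error, in limma fits on all 10 tumors, without shPC 5, with Adipoq as a covariate and with the mean of B cell and lymph node genes as a covariate. With all tumors the values run from -3.31 (Retnla) to 1.47 (Cbr2), and with the lymph node covariate from -0.77 to 0.92.

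Among themselves some of the genes fell into sets that moved together over the tumors. Pearson correlations are given as a description without a test, each over the same 10 arrays. Both groups are pooled in them, so a group difference shared by both genes raises r. Stab1 went with Cbr2 (r = 0.926), Mrc1 (0.858) and Folr2 (0.800), and Folr2 went with Cbr2 (0.908). Retnla went with Clec10a (0.940) and Mgl2 (0.747), and Mgl2 with Clec10a (0.866). Between these sets the correlations were below 0, from -0.057 for Folr2 with Retnla to -0.568 for Stab1 with Mgl2. Lyve1 and Cd163 went with each other (0.615). Cd163 also went with Stab1 (0.666), Cbr2 (0.654) and Folr2 (0.556), and less with Mrc1 (0.36). Chil3 had 0.288 with Mgl2 as its highest value and -0.626 with Mrc1 as its lowest. Many other genes of the array had r as high as several of these values. With all genes ordered by r with Stab1, Cbr2 stood at place 26, Mrc1 at 165 and Folr2 at 387. By r with Retnla, Clec10a stood at place 2 and Mgl2 at 429, and by r with Cd163, Lyve1 stood at 913. Over the 9 tumors without shPC 5, r was 0.878 for Stab1 with Cbr2, 0.603 with Mrc1 and 0.620 with Folr2, and 0.841 for Folr2 with Cbr2. Retnla then had 0.921 with Clec10a and 0.646 with Mgl2, and Mgl2 had 0.822 with Clec10a. The values between the sets were then no longer all below 0, but ran from -0.208 (Stab1 with Retnla) to 0.393 (Folr2 with Retnla). Chil3 then had -0.302 with Mgl2 and -0.115 with Mrc1. Cd163 then had 0.768 with Stab1, 0.66 with Cbr2, 0.524 with Folr2, 0.26 with Mrc1 and 0.58 with Lyve1.

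A few tumors carried these patterns. The tumor shPC 5 was the highest of the 10 for Mrc1, Stab1, Folr2 and Cbr2 and the lowest for Mgl2, Clec10a, Retnla and Chil3. Ctrl 2 was the highest for Mgl2, Clec10a and Retnla. The tumor shPC 1 was among the top 2 for 5 of the genes (it was the highest for Cd163), and shPC 4 was among the bottom 2 for 4 of them. Ctrl 4 was neither the highest nor the lowest for any gene.

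**Figure D3:**
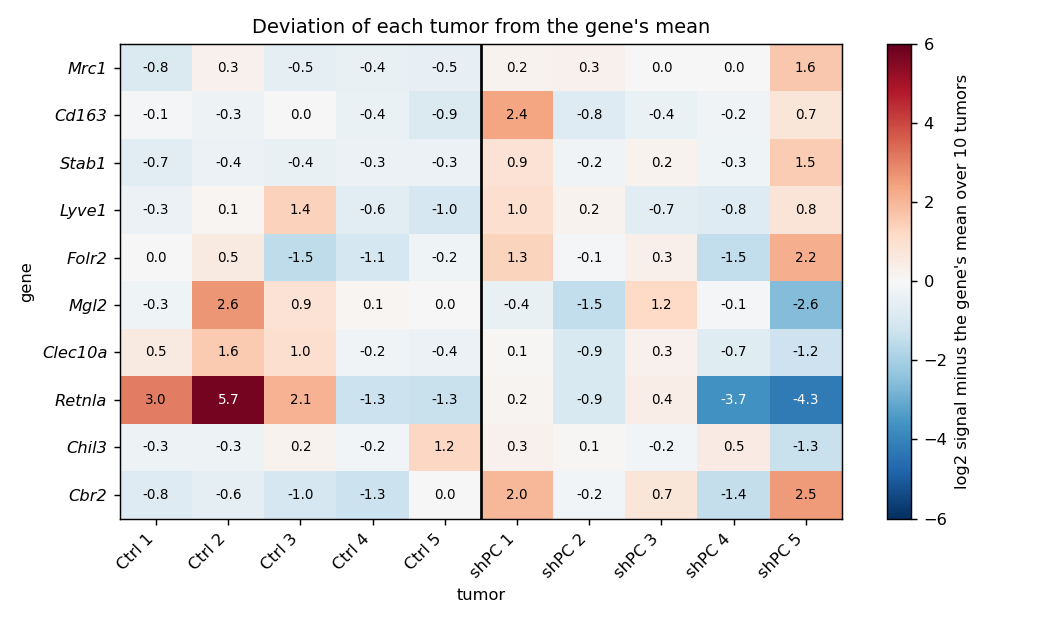
Log2 signal of each gene (rows) in each tumor (columns) minus that gene's mean over the 10 tumors, blue below and red above, with the value in each cell and a line between Ctrl and shPC tumors. In shPC 5 the receptors and Cbr2 are above their means while Mgl2, Clec10a, Retnla and Chil3 are below.

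Adipoq, the gene of the fat cell hormone adiponectin, served as the fat marker. It read 13.56, 11.20, 15.14, 10.31 and 13.29 in Ctrl 1 to 5 and 14.02, 7.81, 13.06, 6.98 and 8.67 in shPC 1 to 5, a difference of -2.59 (SE 1.42, limma adjusted p = 0.437). So shPC 1 and shPC 3 fell inside the range of the Ctrl tumors, and the other 3 shPC tumors had less than any Ctrl tumor. Each of the 19504 other genes was regressed on it over the 10 tumors. A positive slope passed the adjusted test in 0.718% of genes and a negative slope in 0.082%, and 15 of the 15 other adipocyte genes measured passed as positive. The adipocyte genes with the smallest p between the groups were Thrsp (-4.18), Retn (-3.63) and Lpl (-2.52), none of which passed the adjusted test. None of the 10 macrophage genes passed in either direction (adjusted p 0.243 to 0.993 from limma). At an unadjusted p under 0.05, which 5.89% of all genes reached with a positive and 8.64% with a negative slope, 2 of the 10 had a positive slope (Clec10a and Retnla) and 0 a negative one. These shares move with the scaling, and with each array centred on its median 762 genes were positive and 2170 negative, against 1148 and 1686 here. The median r was 0.249 over the 10 genes and -0.0614 over all genes.

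Clec10a was nearest to following Adipoq, with a slope of 0.20 per unit of Adipoq (SE 0.072, limma adjusted p = 0.243). Pearson's r was 0.650 (permutation test, p = 0.0435, adjusted p = 0.316) and Spearman's rho 0.673 (permutation test, p = 0.0385, adjusted p = 0.328). With shPC 4 and shPC 2 left out, the tumors farthest from the median of Adipoq, r was 0.497. Ctrl 2 read far above the line, with the highest Clec10a at an Adipoq of 11.20, and without Ctrl 2 the adjusted p of the slope was 0.0646 (limma), the lowest of all fits tried for any of the genes.

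Retnla had a slope of 0.61 (SE 0.26, limma adjusted p = 0.323). Its r was 0.571 (permutation test, p = 0.0838, adjusted p = 0.407), its rho 0.576 (permutation test, p = 0.088, adjusted p = 0.442), and r fell to 0.439 without shPC 4 and shPC 2. Retnla read 7.28 in Ctrl 5 and 8.80 in shPC 1 although both were rich in Adipoq (13.29 and 14.02), and 14.35 in Ctrl 2 at an Adipoq of 11.20.

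Mgl2 had r = 0.425 (permutation test, p = 0.224, adjusted p = 0.592) and rho = 0.273 (permutation test, p = 0.446). Mrc1 was the gene that ran most against Adipoq, with r = -0.513 (permutation test, p = 0.124, adjusted p = 0.472), rho = -0.552 (permutation test, p = 0.106) and r = -0.685 without shPC 4 and shPC 2. Its slope of -0.124 was -0.064 without shPC 5, the tumor highest for Mrc1, with r = -0.439, and -0.045 without Ctrl 1 and shPC 5. The other 6 genes had r of -0.173 (Stab1), -0.00844 (Folr2), 0.0666 (Cbr2), 0.248 (Cd163), 0.250 (Lyve1) and 0.264 (Chil3), with permutation p of 0.472 to 0.982. Their rho ran from -0.377 (Stab1) to 0.358 (Lyve1), with permutation p of 0.282 to 1.0. Without shPC 4 and shPC 2, r was -0.468 for Folr2, -0.464 for Stab1, -0.285 for Cbr2, 0.0783 for Cd163, 0.151 for Lyve1 and 0.676 for Chil3, so these relations rest on few tumors. Without shPC 5, r was 0.158 for Stab1, 0.290 for Folr2, 0.406 for Cbr2 and 0.039 for Chil3, so the first 2 turned from below to above 0. In all, 10 genes were set against Adipoq, and the adjusted values are over all 19504 genes.

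Within the groups, with group as a covariate, the slope was 0.14 for Clec10a (limma adjusted p = 0.588) and 0.41 for Retnla (limma adjusted p = 0.680). The reverse was done too, and the group difference was fitted with Adipoq as a covariate. Then Cbr2 was at 2.02 (SE 0.68, limma adjusted p = 0.478), Stab1 at 0.97, Mrc1 at 0.66, Clec10a at -0.65 and Retnla at -2.25, and no gene passed.

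**Figure D4:**
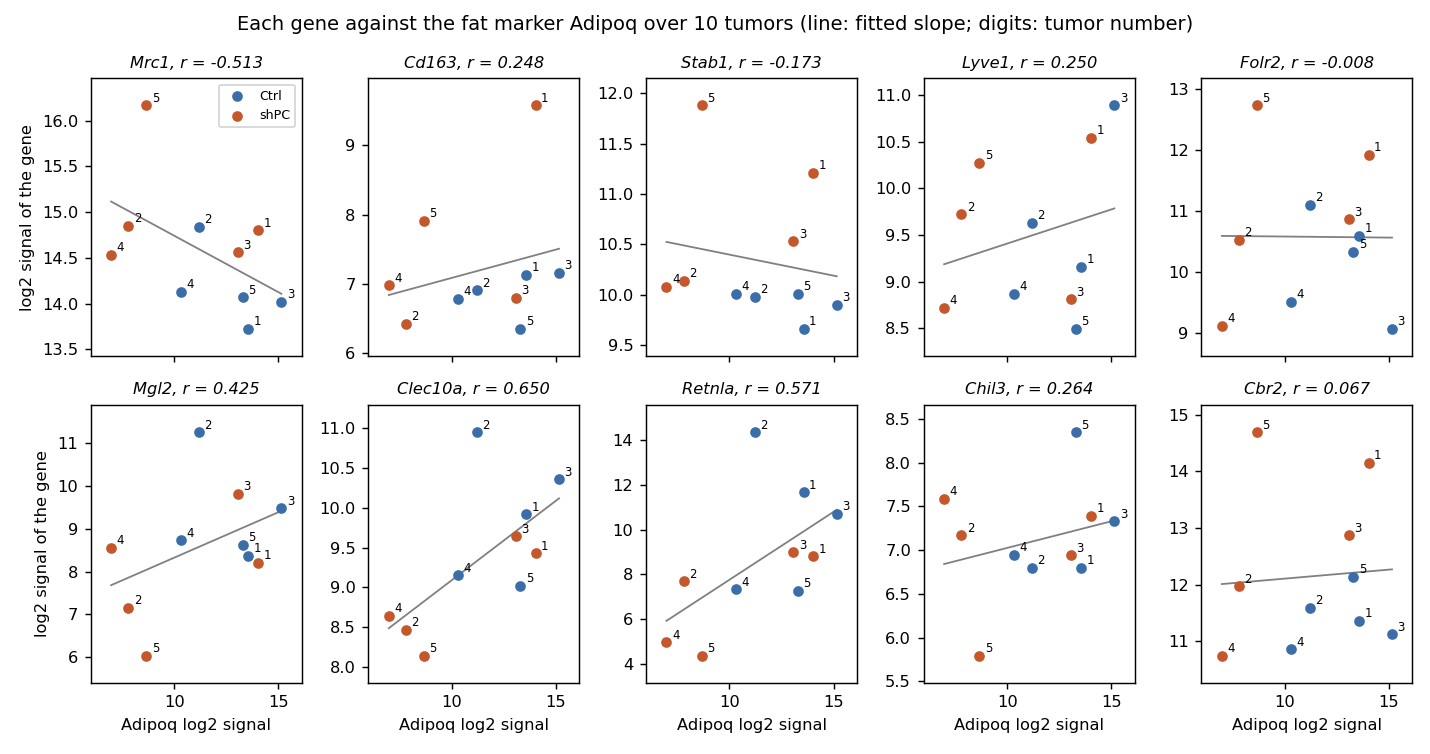
Log2 signal of each gene (y axis, its own scale) against the log2 signal of Adipoq (x axis) in 10 tumors, blue for Ctrl and orange for shPC, with tumor numbers, the fitted slope as a line and Pearson's r above each panel. Clec10a and Retnla have the highest r, 0.650 and 0.571, and Mrc1 the lowest, -0.513.

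Markers of other cells moved with the same tumors. The B cell and lymph node genes (11 of 12 measured) averaged 5.995 to 7.22 among Ctrl tumors and 4.94 to 6.28 among shPC tumors, highest in Ctrl 2 and lowest in shPC 5, the tumors that were highest and lowest for Mgl2 and Clec10a. Pax5, a B cell transcription factor, was under the 30th percentile of all 10 arrays. Ms4a1 was so on 3 Ctrl and 5 shPC arrays, Fcrla on 3 and 2, Cxcr5 on 1 and 2 and Blk on 1 and 1. The list is thus an uncertain measure of B cells. Its chemokine Cxcl13 was at 8.24 in shPC 5, at 12.18 to 14.42 in the other shPC tumors and at 14.40 to 15.93 with Ctrl. With the mean of this list as a covariate the difference was -0.77 for Retnla, -0.34 for Clec10a, 0.29 for Mgl2, 0.42 for Stab1 and 0.92 for Cbr2, and no gene passed. The covariate acted over the whole array. At an unadjusted p under 0.05 it left 394 of all genes lower and 527 higher, against 1219 and 1521 without it. The T cell genes (10 of 12 measured) ran from 10.06 to 11.34 in the Ctrl tumors and from 6.70 in shPC 5 to 10.24 in the shPC tumors, led by Cd3e (-2.08, and -1.25 without shPC 5), Cd8a (-1.91 and -1.13) and Cd2 (-1.81 and -1.16). The dendritic cell genes (all 12 measured) ran from 9.08 to 9.40 in the Ctrl tumors and from 7.70 in shPC 5 to 8.98 in the shPC tumors, and Irf8, a transcription factor of monocytes and dendritic cells, had -1.01 (SE 0.25, limma adjusted p = 0.193) and -0.79 without shPC 5. Ccr7, a homing receptor of dendritic and T cells, had -0.76 and, without shPC 5, -0.55. The part of these cells in the values of Mgl2, Clec10a and Retnla was not tested. With the mean of the macrophage identity genes as a covariate the estimates were 1.14 for Mrc1, 0.90 for Stab1, 1.69 for Cbr2, -0.998 for Clec10a and -2.75 for Retnla.

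The route to alternative activation was covered by 32 of 34 listed genes (Il2rg and Il1rl1 were not analysed here). None passed the adjusted test. At an unadjusted p under 0.05, 12 read lower in the shPC tumors and 0 higher, beside 6.25% and 7.8% of all genes. The median difference was -0.50 beside 0.04 over all genes. Without shPC 5 there were 7 lower and 0 higher, where 5.04% of all genes were lower and 5.77% higher, and the median was -0.37. The genes of each step that are given here were picked for their place in the route, with their values in view. Of the ligands, Il4 was under the 30th percentile of all 10 arrays and gives no usable level, and Il13 was so on 2 arrays. Il33, an alarm cytokine, read 10.24 to 12.07 with Ctrl and 10.28 to 12.24 in the shPC tumors other than shPC 5, where it was 8.32. The receptor chain Il4ra had a difference of 0.066 (SE 0.20) and the factor Stat6 one of 0.070 (SE 0.12). The receptor Il10ra, which carries the signal of interleukin 10, had -0.67 (SE 0.22, limma adjusted p = 0.236), with each shPC tumor below each Ctrl tumor, and -0.50 without shPC 5.

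Of 10 signal and transcription factors 4 read lower at an unadjusted p under 0.05. Socs1, which dampens cytokine signals, had -1.56 (SE 0.34, limma adjusted p = 0.185) without overlap of the groups, and -1.24 without shPC 5. Irf4, a transcription factor of alternatively activated macrophages and dendritic cells, read 8.70 in Ctrl 2 and 3.98 in shPC 5, the same extremes as Mgl2. It had -1.46 (SE 0.58), which was -1.08 without shPC 5 and then no longer under that threshold (limma unadjusted p = 0.0688). Cish, also among the 4, was then above the threshold too (limma unadjusted p = 0.058). Pparg, a factor of both fat cells and alternatively activated macrophages, was the only gene of the route to pass the slope on Adipoq (r = 0.931, adjusted p = 0.00223 from limma).

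Of 14 targets 6 read lower and 0 higher at that threshold, beside 6.25% and 7.8% of all genes. The 6 include Cdh1, also on the mammary epithelium list, and a gene also on the dendritic cell list. Pdcd1lg2, which encodes the checkpoint ligand PD-L2, had -3.28 (SE 0.84, limma adjusted p = 0.194), with 9.27 to 12.85 among Ctrl and 5.37 to 9.65 among shPC tumors, and -2.79 without shPC 5. The chemokine genes Ccl22 and Ccl17, products of alternatively activated macrophages and of dendritic cells, had -2.17 and -1.77, which without shPC 5 were -1.42 and -1.02, smaller by over 1.5 times. Ccl17 was then no longer under the threshold (limma unadjusted p = 0.0676), and neither was Egr2, also among the 6 (limma unadjusted p = 0.076). Arg1, the arginase of alternatively activated macrophages, had a difference of only 0.088 (SE 0.82), which turned to -0.50 (SE 0.73) without shPC 5, and its 2 highest tumors were Ctrl 2 (11.91) and shPC 5 (11.60), which stood at opposite ends for Retnla (14.35 and 4.36) and Mgl2 (11.26 and 6.03).

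**Figure D5:**
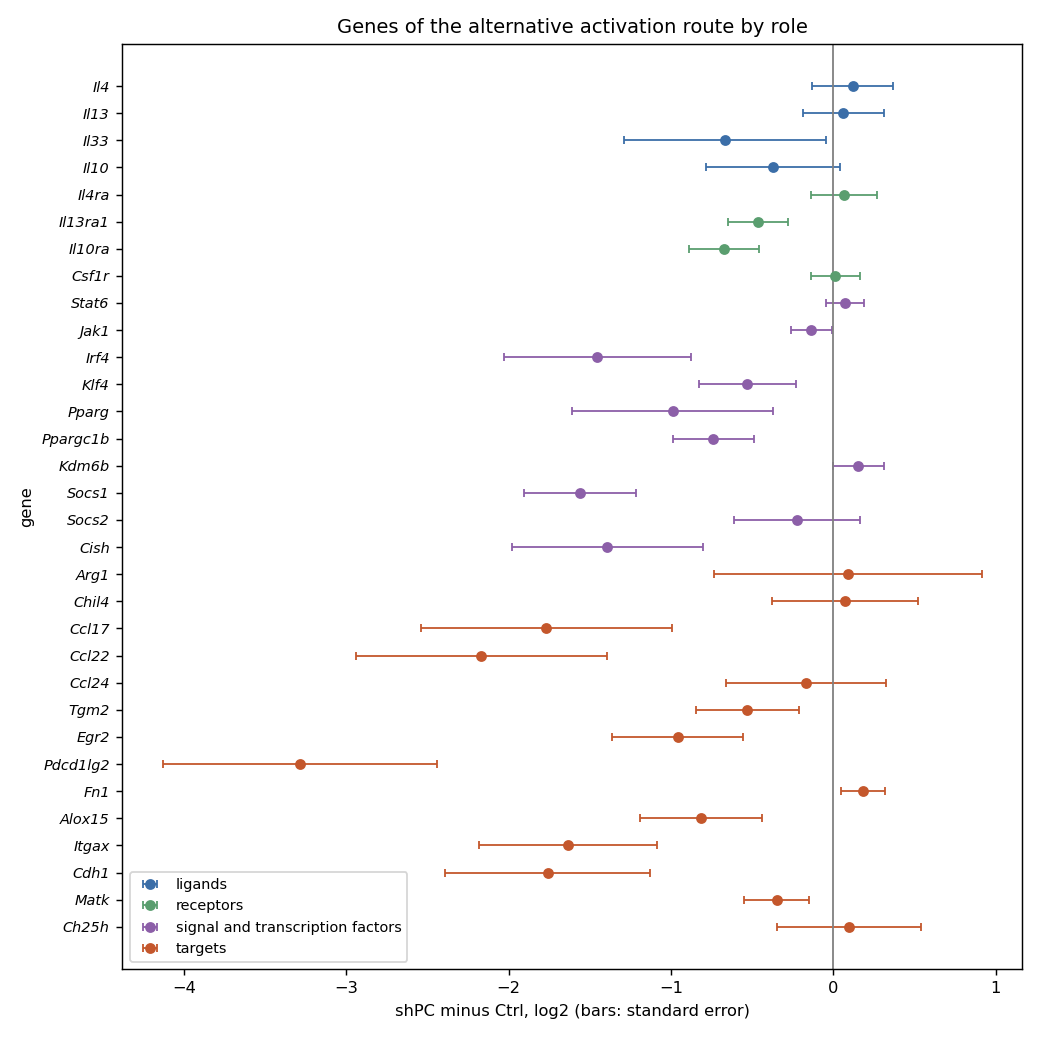
Difference between the groups (shPC minus Ctrl, log2, x axis) with its standard error for the 32 measured genes of the alternative activation route, coloured by role. Most estimates are below 0, down to -3.28 for Pdcd1lg2, while Il4ra, Stat6 and Arg1 are near 0.

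Of other genes of resident macrophages all 23 were measured, and none passed the adjusted test. At an unadjusted p below 0.05 there were 5 higher and 2 lower, beside 7.8% and 6.25% of all genes, with a median difference of 0.20. The count of lower genes was near the share over all genes. Without shPC 5 there were 4 higher and 2 lower, beside 5.77% and 5.04% of all genes, with a median of 0.12. Slco2b1, an organic anion transporter, read 7.08 to 8.37 among Ctrl and 8.65 to 11.23 among shPC tumors, without overlap, with a difference of 1.92 (SE 0.44, limma adjusted p = 0.185) and 1.49 without shPC 5. Vsig4, a complement receptor, had 1.55 (SE 0.44, limma adjusted p = 0.205), but it was under the 30th percentile on 3 of the 5 Ctrl arrays and on 0 of the shPC arrays, so its level with Ctrl was not clearly above background and the size of its difference is uncertain. Timd4, a receptor for phosphatidylserine, had -0.59 (SE 0.21, limma adjusted p = 0.260). Only Cd36, a fatty acid transporter that is also on the adipocyte list, passed the slope on Adipoq in this list (r = 0.979).

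The genes of classical activation, the state opposed to alternative activation in textbook schemes, were measured for 14 of 16. None passed the adjusted test. With unadjusted p below 0.05 there were 9 lower and 0 higher, beside 6.25% and 7.8% of all genes, and the median difference was -1.17. Without shPC 5 there were again 9 lower and 0 higher, beside 5.04% and 5.77% of all genes, with a median of -0.94. Tnf had -1.26, the costimulatory receptor Cd40 had -1.18 and the chemokine Cxcl10 had -1.47, with adjusted p of 0.185, 0.185 and 0.194 from limma. Without shPC 5 these differences were -1.12, -1.035 and -1.13. The median of the list was below 0, as were those of the lectins and secreted proteins, while that of the receptors was above 0.

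The genes whose pattern was most like each of the 10 were found by Pearson's r over the 10 tumors, as a description with no test. For Mrc1 they were Smim15 (0.982), Rtn4r (0.969) and Msr1 (0.963), the last a scavenger receptor of macrophages. For Stab1 they were Eif4a1 (0.988), Rnf141 (0.966) and Itsn1 (0.960), and Itsn1 was also first for Cbr2 (0.958), before Fhl3 (0.931) and Txlna (0.929). Folr2 had Col14a1 (0.937), Lzts3 (0.930) and Pepd (0.924). Clec10a had Ace and Ifi30 (both 0.964) and Ccl11 (0.952), Mgl2 had Ninj1 (0.948), Cacnb1 (0.946) and Irf4 (0.946), and Retnla had Car4 (0.946), Fndc1 (0.929) and Mreg (0.928). Cd163 had Vsig2 (0.955), Actb (0.949) and Nfxl1 (0.941), Lyve1 had Tigar (0.897), Cdk15 (0.887) and Zp3r (0.882), and Chil3 had Cda (0.918), Omg (0.895) and Galntl6 (0.887). Without shPC 5 the 30 values were between 0.818 (Chil3 with Omg) and 0.970 (Stab1 with Eif4a1), and Mrc1 with Msr1 was at 0.882.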

How the data were processed

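The 10 genes, the gene lists and the tests were chosen with earlier results of these data known. Per the study's methods RNA of 10 whole tumors went through the WT PLUS kit onto Clariom S mouse arrays, and the authors used Transcriptome Analysis Console. The deposited values are log signals, read here as log2. The base and the normalization are not given in the sources used here, and array maxima of 19.04 to 19.19 are above what a 16-bit scanner gives on a log2 scale, so the base is not certain. Of 22206 probe sets 19572 name 1 gene, and 2634 are not listed in the annotation and were left out. For 55 genes with several probe sets the one with the highest mean was used, which left 19505 genes. Each of the 10 genes had 1 probe set. Values of different probe sets were not compared with each other.

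Groups were compared with limma 3.58.1 (R 4.3.3) over all genes without covariates, with Benjamini-Hochberg adjustment and a threshold of 0.05. Single genes had an exact permutation test over every split of the tumors into groups of 5. The slope on Adipoq was fitted with limma, and r and rho had permutation tests of 100000 resamples (random seed 11). Named were the 10 genes, Adipoq and Pcx, genes among the 3 with the smallest p of each list, not every one of which is printed, and the 3 genes most like each of the 10. Outside that rule, and after their values were seen, Prox1, Flt4, Pdpn, Il4, Il13, Il33, Il4ra, Stat6, Pparg, Ccl22, Ccl17, Arg1, Cd36, Pax5, Prg2 and Epx were named. Ms4a1, Fcrla, Cxcr5, Blk, Mmp8, Camp, Ngp, Retnlg, Elane, Ltf, Cish and Egr2 were named in the same way. Promoter windows came from RefSeq. Replicate numbers did not pair the tumors. Alternatives were other normalizations, a filter at the 30th percentile in at least 5 arrays, array weights, other variance moderation (statmod 1.5.0) and the mean of probe sets. Further ones were a t-test with equal variances, covariates, other fat markers, a replicate block and leaving tumors out. Fits of the lists and correlations without shPC 5 were added after seeing the data. The fits were tested on simulated data. The number of arrays limits the precision.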

Additional observations from a re-analysis of the deposited data

Results flagged for a closer look

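The Mrc1 log2 signal of 16.17 in shPC 5 lay 1.32 above the next shPC tumor, a gap that is 0.805 of the range of the 5 shPC tumors and above Dixon's critical value of 0.71. It was the only one of 24 groups of 5 values tested (the 10 genes, Adipoq and Pcx in each group) to do so, and chance gives about 1 in 20. The same tumor had the lowest array median, 6.785.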

How the results depend on the processing

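None of the 10 genes passed the adjusted test for the group difference in any of 23 alternatives (lowest adjusted p 0.118, Retnla with the replicate block) or for the slope on Adipoq in any of 21 (lowest 0.0646). The median difference of the 10 genes stayed above 0, at 0.067 to 0.63 with 1 tumor left out. Of 230 values of single genes for the difference 221 kept their sign, and of 210 for the slope 192 did. The sign of the difference turned for Lyve1 (-0.028 to 0.57 with 1 tumor left out, below 0 without shPC 1 or without Ctrl 5, -0.0225 without Ctrl 1 and shPC 5, -0.019 with the lymph node list as a covariate), for Chil3 (-0.42 to 0.0265, above 0 without shPC 5 or without Ctrl 5, and 0.054 with the lymph node list), for Mgl2 with the lymph node list (0.285) and for Cd163 with the macrophage identity list (-0.066). The sign of the slope turned for Folr2, whose value was near 0, at -0.15 to 0.105 with 1 tumor left out (above 0 without shPC 5, Ctrl 3 or Ctrl 5), 0.0041 with quantile normalization, 0.047 with array weights, 0.095 without Ctrl 1 and shPC 5 and 0.1005 with group as a covariate. It turned for Stab1 at -0.085 to 0.025 (above 0 without shPC 5), 0.04425 without Ctrl 1 and shPC 5 and 0.04449 with group as a covariate, for Cd163 at -0.014 to 0.13 (below 0 without shPC 1), for Lyve1 at -0.0066 to 0.12 (below 0 without Ctrl 3) and for Cbr2 at -0.090 to 0.16 (below 0 without shPC 1 or shPC 4) and -0.023 with Plin1 in place of Adipoq. The cause was not tested.

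With the replicate block the slope was -0.089 for Cd163, -0.063 for Lyve1 and -0.31 for Cbr2. Tumors of the same number share only that number (correlation of their deviations 0.044 to 0.281, and number 3 alone matched its own best), and the block moved the count of all genes passing the slope from 140 positive and 16 negative to 21 and 2, and left that of the difference at 0.

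Over all genes, 0 passed the difference as reported, against 5 lower and 5 higher with trend and robust variances, 1 lower with arrays centred on their median, 1 higher without shPC 2, 4 lower without shPC 4 and 1 lower without Ctrl 4. Without the block, positive slopes passed in 89 (without Ctrl 3) to 185 genes (Plin1) and negative ones in 2 to 48. In these arrays 10 tumors limit what can be told apart, and Il4 lay too near background to be read.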

Other observations

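Other cells of the tumors were measured by lists of their genes, none of which had a gene that passed the adjusted test. At an unadjusted p under 0.05, 6.25% of all genes read lower and 7.8% higher, and without shPC 5 it was 5.04% and 5.77%. Of 11 neutrophil genes 4 read lower in the shPC tumors at an unadjusted p under 0.05 and 0 higher, led by Csf3r, the receptor of granulocyte growth factor, at -0.83 (SE 0.21, limma adjusted p = 0.193), with S100a9 and S100a8, alarm proteins of neutrophils, at -1.51 and -1.80. S100a8 was under the 30th percentile on 4 of the 5 shPC arrays and S100a9 on 2. Mmp8 and Camp were so on all arrays, Ngp and Retnlg on 4 Ctrl and 5 shPC arrays, Elane on 5 and 4 and Ltf on 3 and 3. Of the 11 neutrophil estimates 8 were below 0 and 3 above. Whether the Csf3r signal came from neutrophils was not tested. Of 11 fibroblast genes 2 read lower, Ly6c1 at -1.22 and the matrix gene Dcn at -1.23, both lowest in shPC 5 (13.15 and 13.64) and at -0.74 and -0.70 without it. Blood endothelium (11 genes) had 0 lower and 0 higher, with Emcn at 0.67 and Cdh5 at 0.56. Without shPC 5 it had 0 lower and 2 higher, Cdh5 at 0.76 and Esam at 0.74. Emcn, also at 0.76, did not reach the threshold (limma unadjusted p = 0.0513). Of 12 mast cell and eosinophil genes 0 read lower and 0 higher, and Ms4a2, Prg2 and Epx were under the 30th percentile of all arrays. In mammary epithelium (12 genes) Cdh1 had -1.76 and Epcam -2.03, or -1.21 and -1.43 without shPC 5. In the mesenchymal tumor cell list (9 of 10 measured) Cdh2, the adhesion gene of mesenchymal cells, had 1.01 (SE 0.33, limma adjusted p = 0.235) with all shPC tumors above all Ctrl tumors, and 0.71 without shPC 5. Skeletal muscle genes had a mean of 8.20 in Ctrl 1 and 3.78 to 4.51 in the other 9 tumors. On the list for lymphatic endothelium Ccl21a ran from 6.56 to 12.99 over the tumors. Fgl2, on the same list and lowest in shPC 5 (11.67), had -1.25, or -0.83 without shPC 5. Whether its signal came from these cells was not tested.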
